A study of Drosophila melanogaster with 20 samples.

Results

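The genes described here encode the respiratory chain and the ATP synthase of *Drosophila melanogaster*. They were chosen by name alone, as every gene whose symbol starts with ND-, Sdh, UQCR-, COX and a digit, or ATPsyn. The deposited symbols hold 78 such genes among 17609 in the count table, and 75 of the 78 are in the nucleus. The other 3, COX1, COX2 and COX3, lie on mitochondrial DNA (mtDNA), so they go against the label of nuclear-encoded genes and are described apart. Of the 75, 61 are main-form subunits, namely 32 of complex I, 4 of complex II, 6 of complex III, 8 of complex IV and 11 of the ATP synthase. The rest are 12 paralogs whose symbols end in L or L2, the assembly factor Sdhaf3, and CG40472, which carries the symbol ND-AGGG a second time in the deposited tables. Another 14 genes match by their reference symbol only, since symbols were deposited for genes that passed the authors' filter on low counts. None of these 14 exceeded 22 counts in any sample, none was tested between the genotypes within a sex, and none enters the counts of members below. ND-51L1 alone passed the filter of the fits over 20 samples, where it was not called.

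RNA came from whole heads of 1-week-old unmated flies, with 10 heads pooled per sample and 5 samples in each of 4 groups. A wild-type *white* allele from the Harwich strain was crossed for 10 generations into w1118, the standard white-eyed stock, and all 4 groups are offspring of that cross in the w1118 background. The red-eyed groups (w+) are males with the Harwich allele on their only X and females with 1 Harwich and 1 w1118 copy, whereas the white-eyed groups (w-) carry only the w1118 allele. The allele came with whatever linked Harwich DNA the crosses kept, which cannot be told apart from *white* itself.

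The gene counts of a library summed to between 34211100 and 48866963. The *white* gene had 374 to 688 counts in each w+ sample and 4 to 15 in each w- sample, so every genotype label held. These counts do not bear on the labels of sex or replicate number. The replicates are separate pools of heads from one cross, and p-values measure the spread between these pools. In bulk heads, less RNA per cell and fewer cells of a type cannot be told apart. Of the marker lists, summed photoreceptor markers lay at 43044 to 57170 CPM (counts scaled to a common library total) and summed neuron markers at 4080 to 5536 CPM over all samples, as heads should show. The summed male germline markers ranged from 5.97 to 24.2 CPM. Libraries w+ male 4, w- male 1 and w- male 4 stood apart by these germline markers, as described with the paralogs below, and values without them are given.

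Complexes I, III and IV pass electrons from nutrients to oxygen and pump protons across the inner mitochondrial membrane, and the ATP synthase uses the returning protons to make ATP. Complex II, succinate dehydrogenase, is also an enzyme of the tricarboxylic acid (TCA) cycle, pumps no protons, and is the only one of the 4 respiratory complexes with no subunit encoded by mtDNA. Photoreceptors and neurons in the fly head are known for high demand for ATP. The deposited genes of these complexes lie on every large chromosome arm, with 14 on 2L, 15 on 2R, 16 on 3L, 16 on 3R, 2 on 4 and 12 on X.

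Levels were compared between genes as CPM per kilobase of annotated exon, after scaling by the trimmed mean of M-values (TMM). In w+ males the median over the 61 main-form subunits was 116 CPM per kb, against 8.97 over 11412 genes with usable counts and a length. ATPsynC, the ring subunit that turns with the proton flow, was highest at 664 ± 33.3 CPM per kb (SD, n = 5), followed by the catalytic subunit ATPsynbeta at 511 ± 11.7. Lowest was ND-B18, an accessory subunit of complex I, at 26.7 ± 2.12. The genes of the ATP synthase and complex IV had the higher medians, 202 and 210 CPM per kb, and those of complexes I, II and III lay at 84.3, 106 and 107.

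The subunits of a complex did not share 1 level. Within complex I the range ran from ND-B18 to ND-MLRQ at 360 ± 13.3 CPM per kb, 13.5 times apart, and within complex III from UQCR-Q at 31.7 ± 1.93 to the core subunit UQCR-C1 at 229 ± 6.4. Complex II was the most even, from SdhD, a membrane anchor, at 87.9 ± 4.71 to SdhA, the flavoprotein, at 126 ± 3.31. Complex IV ran from COX8 at 126 ± 7.38 to COX7B at 294 ± 13.6. The lowest ATP synthase value was that of ATPsyndelta at 29.6 ± 1.33, whose annotated exons span 3817 bp, the longest of the 61. With the length of the canonical transcript in its place, a choice made after seeing the data, ND-B18 was at 31.9 CPM per kb, UQCR-Q was at 41.4, and ATPsyndelta, still at 29.6, became the lowest. The 3 mtDNA-encoded subunits of complex IV were far above all nuclear ones, at 7059 ± 784 for COX1, 6672 ± 772 for COX3 and 3184 ± 191 for COX2.

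**Figure D1:**
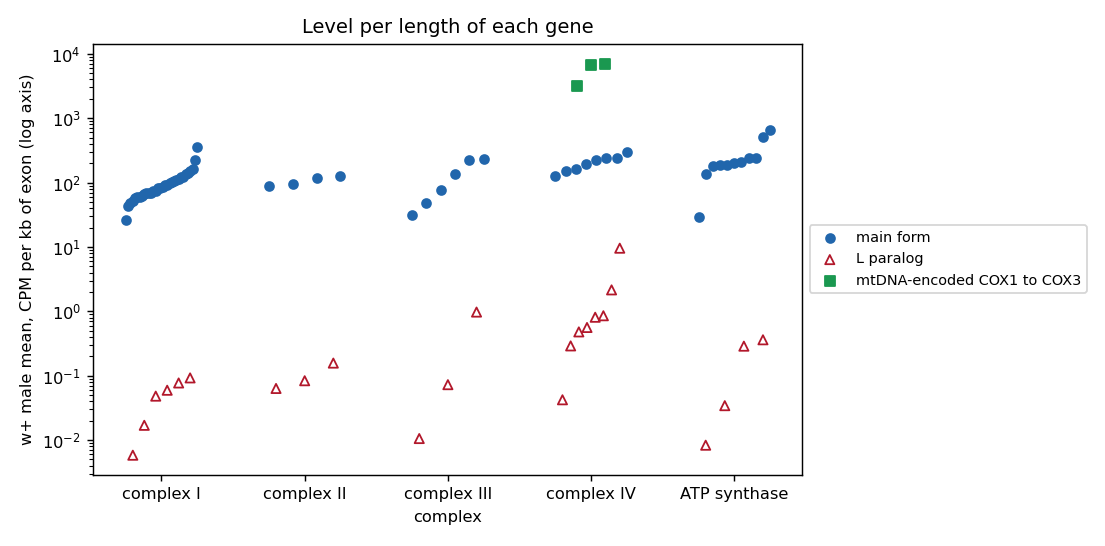
Mean level in w+ males of each gene, in CPM per kb of exon on a log axis, by complex. Main forms (filled circles) lie between 26.7 and 664, L paralogs (open triangles) at or below 9.55, and the mtDNA-encoded COX1 to COX3 (squares) at 3184 to 7059.

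Main-form subunits also varied little between libraries of a group. Their within-group standard deviation on the log2 scale had a median of 0.072 and ranged from 0.044 to 0.112. Over the 4561 genes at or above the level of the lowest of the 61, that median was 0.088. Their fitted log2 fold changes between genotypes had a median standard error (SE) of 0.042 in males and 0.044 in females.

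The main question of the series is how heads without *white* function differ from heads with it. In males, 58 of the 61 main-form subunits were lower in w- than in w+ flies on the fitted log2 scale, with a median log2 fold change of -0.087, against 0.0012 for all 11187 genes tested. Nearly all of these differences were too small to pass the test for a single gene. edgeR's quasi-likelihood test with Benjamini-Hochberg adjustment over all genes (adjusted p under 0.05) called 3 of the 61 lower and 1 higher, and CG40472 higher as well. That makes 5 of 74 nuclear genes tested, below the background of 12.7% of all genes called in males, of which 4.64% of all genes were called higher and 8.06% lower. The share of members called was thus no higher than over all genes, and the 61 genes differed from all genes in their median.

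ND-PDSW, an accessory subunit of complex I (FBgn0021967, chromosome 2L, 3466157 to 3467334 in BDGP6.54), had 91.8, 84.7, 95.7, 90.6 and 90.5 CPM in w+ males 1 to 5 and 77.8, 81.7, 83.3, 79.1 and 81.5 CPM in w- males. The groups did not overlap, and the w- library was lower in 5 of 5 pairs of equal number. Its log2 fold change was -0.17 ± 0.039 (SE; edgeR adjusted p = 0.025). UQCR-C1, a core subunit of complex III (FBgn0038271, 3R, 14890231 to 14892387), had 383, 356, 379, 379 and 374 CPM in w+ males and 324, 342, 353, 325 and 328 in w- males. These groups did not overlap either, with a log2 fold change of -0.17 ± 0.041 (adjusted p = 0.032).

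ATPsyngamma, the central shaft of the ATP synthase (FBgn0020235, 3R, 29747704 to 29749163), had 195, 184, 212, 203 and 206 CPM in w+ males and 166, 183, 189, 181 and 179 in w- males. Here w+ male 2 lay within the w- range, although the w- library was lower in 5 of 5 pairs. The log2 fold change was -0.16 ± 0.043 (adjusted p = 0.045). None of the 5 calls held in every subset of libraries. Without the libraries numbered 1, 0 of the members tested were called, and so without number 5, while the count was 16 without number 2 and 1 without number 3 or number 4. Over all genes the calls without numbers 1 to 5 were 1041, 1526, 792, 1313 and 714. With library size alone as the scale the 3 lower calls were lost (adjusted p = 0.088 for ND-PDSW, 0.11 for UQCR-C1 and 0.13 for ATPsyngamma).

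Against the direction of the rest, ND-AGGG rose in w- males. This accessory subunit of complex I (FBgn0058002, 3L, 24976254 to 24977118) had 43.2, 43.8, 43.6, 42.7 and 44.4 CPM in w+ males and 47.9, 49.9, 46.0, 47.7 and 49.8 in w- males. Every w- male was above every w+ male, with a log2 fold change of 0.14 ± 0.037 (adjusted p = 0.041), a call that was lost with DESeq2 (adjusted p = 0.14) and when any 1 replicate number was left out. CG40472 (FBgn0085736), which lies nearby on 3L from 24927130 to 24927710, had 13.6, 14.8, 14.9, 13.8 and 14.8 CPM in w+ males and 16.9, 17.4, 15.3, 16.8 and 18.3 in w- males. These groups did not overlap, and its log2 fold change was 0.23 ± 0.051 (adjusted p = 0.022), a call also lost with DESeq2 (adjusted p = 0.10) and without number 1, 2, 4 or 5. The pair shares a deposited symbol, and reads that fit both genes equally well would not have been counted on either, so the share of each is uncertain.

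In females none of the 61 genes passed the test. Under TMM scaling 55 of the 61 were lower in w- females, but only 3 with library size alone as the scale. The TMM values had a log2 fold change of -0.096 against -0.0036 for all 10762 genes tested. edgeR called 0 of 70 nuclear genes, and DESeq2 also called 0. The unadjusted p of edgeR was under 0.05 for 21 of the 61 and for 3455 of all 10762 genes tested, a similar share. The background in females was 9.23% of genes called, 4.72% higher and 4.51% lower. The smallest adjusted p was 0.064, for ND-18, an accessory subunit of complex I, with a log2 fold change of -0.11 ± 0.030. When all 20 samples entered 1 fit, 6 of 75 members were called lower in w- females. In that fit 1157 of the 11423 genes were called lower, so the share of members was no higher than over all genes.

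The largest female difference among the main forms was that of ATPsynG, a small membrane subunit of the ATP synthase. It had 188, 193, 173, 197 and 167 CPM in w+ females and 169, 149, 159, 181 and 159 in w- females. The w- library was lower in 5 of 5 pairs, yet w+ female 5 and w- female 4 made the groups overlap. The log2 fold change was -0.17 ± 0.050, with an adjusted p of 0.077. Under TMM the 3 genes called lower in males had lower values in every female pair too, at -0.10 ± 0.047 for ND-PDSW, -0.12 ± 0.040 for UQCR-C1 and -0.14 ± 0.046 for ATPsyngamma, with adjusted p-values between 0.091 and 0.18, whereas with library size alone their female values were 0.037, 0.015 and 0.00070.

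**Figure D2:**
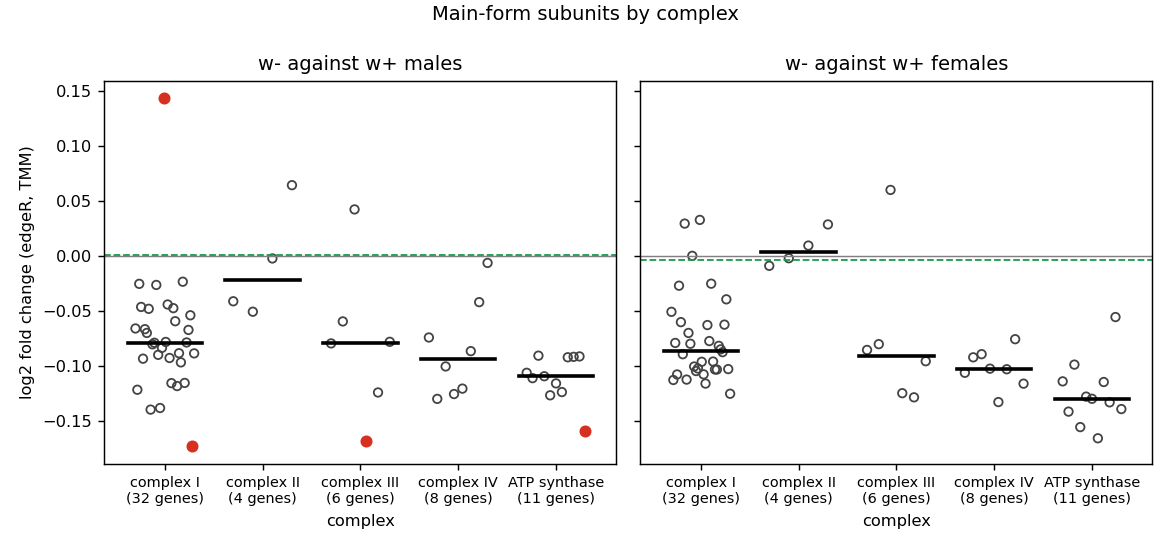
Fitted log2 fold change of each of the 61 main-form subunits (circles), w- against w+, by complex, in males (left) and females (right). Filled circles passed an adjusted p of 0.05, black bars are medians per complex and the dashed line is the median of all genes tested. Under TMM scaling 58 points lie below 0 in males and 55 in females, and with library size alone only 3 of the 61 would lie below 0 in females.

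Under TMM, though not with library size alone in females, 55 of the 61 were lower in w- flies of both sexes, or 90.2%, against 38.8% of the 10612 genes tested in both. The 61 genes shifted together in single libraries, as given below, so this is not a share of independent genes. The complexes differed among themselves in their TMM medians, and with library size alone the medians of all 5 were above 0 in females and that of complex II also in males. The ATP synthase had the lowest medians, -0.11 in males and -0.13 in females, with all 11 subunits below 0 in both sexes. Complex IV followed at -0.094 and -0.10, with all 8 below 0 in both sexes, then complex III at -0.079 and -0.091 and complex I at -0.079 and -0.086. Complex II stood highest, at -0.022 in males and 0.0038 in females. With library size alone, which moves all genes by nearly the same amount, the medians of the ATP synthase and complex II were -0.059 and 0.029 in males and 0.010 and 0.14 in females.

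SdhA, which carries the flavin of complex II, had 359, 340, 343, 350 and 336 CPM in w+ males and 324, 337, 353, 332 and 339 in w- males. In females it had 348, 339, 347, 353 and 375 CPM against 361, 339, 348, 356 and 345. The groups overlapped in both sexes, although 2 of the w- males lay below all w+ males, with log2 fold changes of -0.041 ± 0.041 (adjusted p = 0.58) and -0.0089 ± 0.042 (adjusted p = 0.91). SdhD was the complex II gene furthest above 0, at 0.065 ± 0.043 in males (adjusted p = 0.39) and 0.029 ± 0.033 in females (adjusted p = 0.58). SdhB, the iron-sulfur subunit, was furthest below it in males, at -0.051 ± 0.050 (adjusted p = 0.58). Since complex II has only 4 genes and no test of a whole complex was made, its difference from the others is a description.

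Within the other complexes a few subunits stood apart from the rest. UQCR-6.4, a small subunit of complex III, was at 0.042 ± 0.049 in males and 0.060 ± 0.048 in females (adjusted p = 0.64 and 0.42). UQCR-C2, the partner of UQCR-C1, was the lowest of complex III in females at -0.13 ± 0.042 (adjusted p = 0.091). In complex IV, COX5A came closest to the threshold in males at -0.13 ± 0.037 (adjusted p = 0.055), with 195, 185, 181, 199 and 196 CPM in w+ and 174, 180, 170, 175 and 178 CPM in w- males, which did not overlap. COX7A was the lowest of complex IV in females at -0.13 ± 0.053 (adjusted p = 0.14), and ND-SGDH the lowest of complex I at -0.13 ± 0.044 (adjusted p = 0.11). At the other end of each complex were ATPsynCF6 at -0.091 ± 0.045 and COX8 at -0.0063 ± 0.042 in males, and ATPsyndelta at -0.056 ± 0.041 and COX7C at -0.076 ± 0.054 in females.

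**Figure D3:**
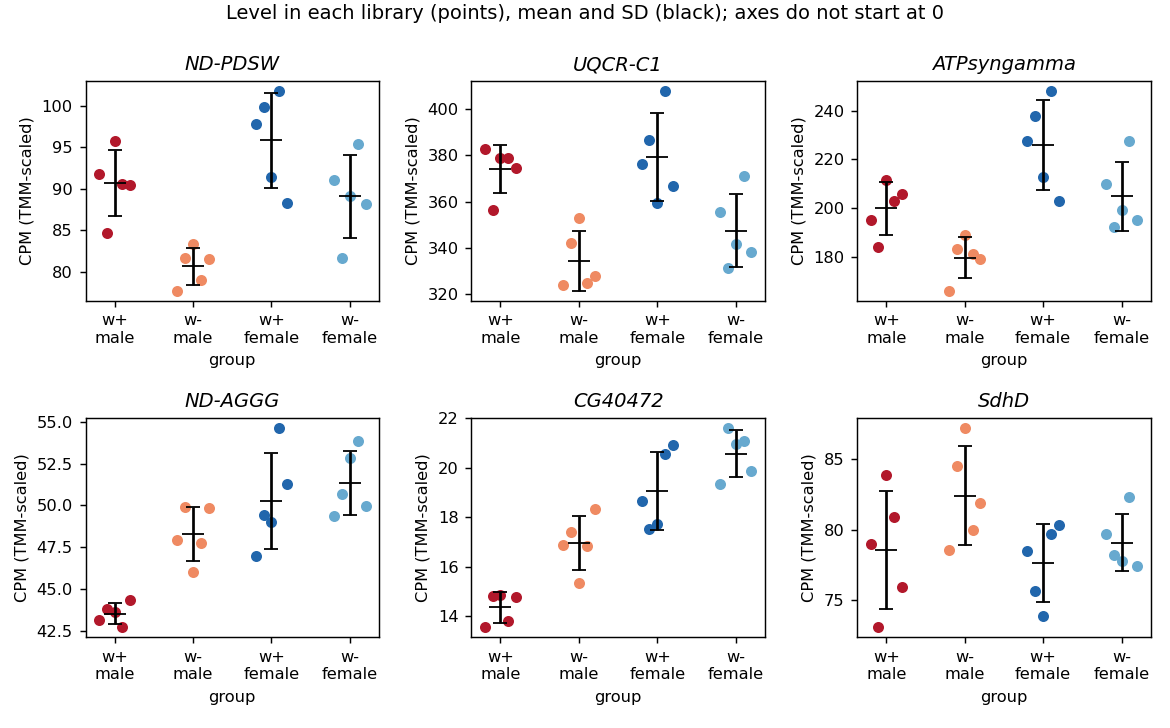
Level of 6 genes in each of the 20 libraries (points, TMM-scaled CPM), with group mean and SD in black. w- males lie below all w+ males for ND-PDSW and UQCR-C1 and above them for ND-AGGG and CG40472, and the groups of SdhD overlap in both sexes.

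The differences varied over libraries of equal number. These numbers name no shared litter or day, and a check of the deviations of the libraries showed no consistent pairing in both sexes. Pairs here and above thus only describe the spread. Without the numbers as a block, 10 of 74 members were called in males, where 1737 of all 11187 genes were. In males the median difference of the 61 genes between libraries of equal number was -0.10, 0.036, -0.055, -0.16 and -0.084 for numbers 1 to 5. Pair 2 thus went the other way, with 20 of 61 genes lower. Library w+ male 2 was low, with 60 of the 61 genes below the mean of its group. Other libraries also shifted as a whole. In w- female 2, 61 of the 61 lay below the group mean, and in w- female 4, 0 did. Their median deviations from the group were -0.085 and 0.12 under TMM. The 61 genes were thus not independent, and counts of them below 0 do not measure certainty. In females the medians under TMM were -0.070, -0.25, -0.033, -0.066 and -0.056, all below 0, with pair 2 the furthest from 0. Without the libraries numbered 2 the fitted female median was -0.055. Under TMM, the w- library was lower in all 5 pairs in 17 of the 61 genes in males and 34 in females. The same count was not made over all genes, nor with library size alone, where only 3 of the 61 fitted female values lay below 0. Complex II had TMM medians below 0 in 3 male and 2 female pairs, and the ATP synthase in 4 and 5.

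These medians changed with a pair of processing choices. The first is scale. When TMM was replaced by library size alone, the male median over the 61 genes was -0.036 and 47 were below 0, and the female median turned to 0.044 with only 3 below 0. The same change of scale moved the median of all genes to 0.052 in males and to 0.14 in females. A change of scale moves all genes nearly alike, so the distance of the 61 genes from the median of all genes, -0.088 in males and -0.093 in females, is not tested by it. The change also moved the split of all genes called, from 519 higher and 902 lower to 1054 and 722 in males, and from 508 and 485 to 1840 and 375 in females. The 61 genes took 0.989 to 1.09% of counts in w+ males, 0.996 to 1.07% in w- males, 0.914 to 0.985% in w+ females and 0.957 to 1.03% in w- females.

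The second is the treatment of gene length. The 61 genes had a median exon length of 871 bp, against 1939 bp for the 11423 genes of the fits over 20 samples. A trend of fold change on gene length was fitted to the same fold changes, those of the members included. With it removed, the median over all nuclear members went from -0.082 to -0.038 in males and from -0.096 to -0.046 in females. The part of gene length in the displacement was not tested. Without pairs 1 and 4, in which male germline counts were found, the male median over the 61 genes was -0.058, with 55 below 0. This smaller fit also left out w+ male 1, which had only 3 counts of the germline gene Mst87F and 1 of dj. All 5 calls were then lost, and 1 other member was called.

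Other groups of genes moved in the same comparisons. On the TMM scale, cytosolic ribosomal proteins were called lower in 80 of 85 genes tested in males and 21 of 84 in females, with medians of -0.28 and -0.48, or -0.23 and -0.33 with library size alone, and they took 4.11 to 6.70% of counts in w+ and 3.67 to 5.21% in w- libraries. Muscle markers were called higher in 7 of 13 genes in w- females and 1 of 13 in w- males, with a summed level of 5926 to 7353 CPM in w+ and 7819 to 8799 CPM in w- females. Fat body markers summed to 6727 to 10681 CPM in w+ males and 4380 to 6516 in w- males, and to 11719 to 24061 against 8006 to 15283 CPM in females, with 2 of 7 called lower in males and 0 of 8 in females. Photoreceptor markers were called higher in 3 of 12 genes in males and 0 of 12 in females, neuron and glia markers in 0 of 7 each in both sexes. On the library-size scale the photoreceptor calls were 5 in males and 4 in females, and in females the muscle calls were 12, the neuron calls 2 and the glia calls 1, all higher in w- flies. Of these lists no gene was at 0 counts in all samples. The part of tissue composition in the respiratory genes was not tested.

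The difference between the sexes in the response to *white* was tested directly. No member had an interaction adjusted p under 0.05 (0 of 75), where 0.0263% of all genes, 3 of 11423, did. The unadjusted p of edgeR was under 0.05 for 2 of the 75 and for 689 of the 11423 genes. DESeq2 also called 0 members. The median interaction over the 61 genes was -0.013, against -0.0080 for all genes, and it turned to 0.050 without the libraries numbered 2. ND-AGGG had the smallest p of the well-expressed members, with a response lower in females by -0.12 ± 0.047 on the log2 scale (edgeR unadjusted p = 0.028, adjusted p = 0.79). In females it had 47.0, 49.4, 49.03, 54.6 and 51.3 CPM in w+ and 49.4, 50.7, 52.8, 53.9 and 49.9 CPM in w- libraries, which overlap. COX8 followed at -0.12 ± 0.064 (adjusted p = 0.85).

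The genes of the pathway outside the symbol pattern were described from lists of named genes. Of 16 listed subunits and electron carriers, 11 were found and tested in males and 10 in females, and under TMM all lay below 0 in both sexes, with medians of -0.097 and -0.086, whereas with library size alone 8 and 2 did. The only call was Cyt-c-p, the cytochrome c of the soma that carries electrons from complex III to complex IV. It had 261, 268, 301, 286 and 273 CPM in w+ males and 236, 253, 257, 246 and 247 in w- males, with no overlap, and a log2 fold change of -0.17 ± 0.038 (adjusted p = 0.025, or 0.080 with library size alone). In females its value was -0.048 ± 0.049 (adjusted p = 0.54). The ATP synthase catalytic partner blw, at 1151 CPM in w+ males, was at -0.13 ± 0.043 and -0.14 ± 0.058 (adjusted p = 0.082 and 0.15).

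TCA cycle genes were called lower in 5 of 14 in males (4 with library size alone) and 0 of 14 in females. These were both subunits of pyruvate dehydrogenase E1, Pdha at -0.21 ± 0.043 and Pdhb at -0.21 ± 0.039, the succinyl-CoA synthetase genes ScsbetaA at -0.43 ± 0.084 and Scsalpha1 at -0.35 ± 0.060, and the malate dehydrogenase Mdh2 at -0.20 ± 0.046, with adjusted p between 0.0080 and 0.026. In females the values were -0.16, -0.15, -0.41, -0.32 and -0.20, with adjusted p between 0.058 and 0.13. The largest value upward was that of Idh3b, at 0.12 and 0.13 (adjusted p = 0.18 and 0.27). These lower values stood beside complex II, an enzyme of the same cycle, none of whose genes was called.

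Among 11 carriers and import genes, the phosphate carrier Mpcp2 fell in both sexes, at -0.27 ± 0.051 in males and -0.32 ± 0.066 in females (adjusted p = 0.012 and 0.037), as did the chaperonin Hsp60A at -0.16 ± 0.040 and -0.22 ± 0.049 (adjusted p = 0.033 and 0.044). Hsc70-5 and Ant2 were called lower in females only, and Mpcp1, the other phosphate carrier, rose there by 0.25 ± 0.049 (adjusted p = 0.034). With library size alone, 1 of these carrier and import genes was still called lower in males and 0 in females. Whether these calls differ between the sexes was not read from them. Of 8 regulators of mitochondrial biogenesis and dynamics and 9 assembly factors, none was called in either sex. In these lists srl, the fly PGC-1 homolog, was at 0.11 in males and -0.31 in females (adjusted p = 0.30 and 0.075). Mitochondrial ribosomal proteins were called lower in 4 of 72 genes in each sex, where 8.06% of all genes were in males and 4.51% in females. Their medians were -0.072 in males and -0.10 in females, or -0.021 and 0.037 with library size alone.

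The 3 mtDNA-encoded subunits in the symbol pattern, COX1 to COX3, differed by more than the nuclear main forms in their medians. COX3 ranged from 4451 to 5825 CPM in w+ males and from 3421 to 4808 CPM in w- males, and fell by 0.40 ± 0.064 (adjusted p = 0.0064). COX1 was at -0.35 ± 0.054 and COX2 at -0.30 ± 0.047 (adjusted p = 0.0056 and 0.0060), and the w- library was lower in 5 of 5 pairs for all 3. The groups overlapped for COX1 and COX3 but not for COX2, at 2018 to 2317 against 1666 to 1928 CPM. In females the values were -0.31 ± 0.13 for COX1, -0.28 ± 0.079 for COX2 and -0.29 ± 0.12 for COX3, with adjusted p from 0.070 to 0.15. With library size alone all 3 were still called lower in males, and the female median of the 3 went from -0.29 to -0.15, with none called. This did not hold for all mtDNA genes. Over the 13 protein-coding mtDNA genes, 4 were called lower in males and 2 in females, and 7 and 13 lay below 0. Their TMM medians were -0.019 in males, nearer to 0 than the -0.087 of the 61 nuclear main forms, and -0.22 in females.

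Female heads were compared with male heads within each genotype. Under TMM scaling, w+ females had higher values than w+ males in 57 of the 61 main-form subunits with 29 called higher and 0 lower, and w- females in 56 with 23 called higher and 0 lower, but with library size alone 59 and 50 of the 61 were lower in females. The medians were 0.13 and 0.11, against -0.00076 and -0.015 for all genes. The background was 20.4% of all genes called higher and 17.2% lower in w+ females, and 19.7% and 18.8% in w- females. With library size alone the median of all genes moved to -0.27 and -0.18 and that of the 61 to -0.14 and -0.062, a move of nearly the same size for both. That scale also moved the calls over all genes from 2332 higher and 1967 lower to 736 and 6596 in w+ flies, and from 2254 and 2151 to 1098 and 4975 in w- flies. The TMM factors behind this were 1.04 to 1.10 in males, 0.793 to 0.959 in w+ females and 0.935 to 1.01 in w- females.

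**Figure D4:**
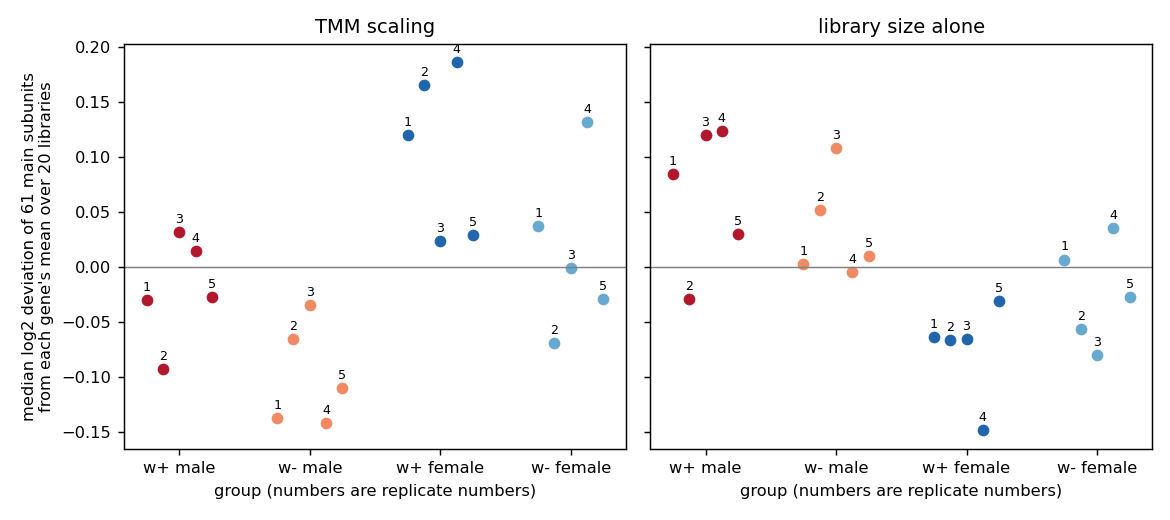
Median log2 deviation of the 61 main-form subunits from each gene's mean over 20 libraries, per library, with TMM scaling (left) and with library size alone (right). With TMM the w+ females lie above 0, from 0.024 to 0.19, and with library size alone they lie below 0, from -0.15 to -0.031.

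By complex under TMM, the ATP synthase had the largest medians, although with library size alone the sex medians of all 5 complexes were below 0. The TMM medians of the ATP synthase were 0.19 in w+ and 0.15 in w- flies, with 11 and 8 of its 11 genes called higher in females. Complex IV followed at 0.17 and 0.14, with 5 and 4 of 8 called. Complexes I, II and III were at 0.093, 0.045 and 0.11 in w+ and 0.087, 0.077 and 0.086 in w- flies. Of the calls, 20 genes were called in both genotypes. In w- flies the count was lower without some libraries: over all nuclear members it was 26, and it was 12 without number 1, 10 without number 4, and 9 without the 4 libraries that hold male germline counts, where the median over the 61 genes was 0.046. In w+ flies 32 were called, 18 without number 1 and 18 without number 2, and without number 2 the median was 0.084. Tissue markers differed between the sexes as well, with muscle markers called higher in females in 11 of 13 genes in each genotype and neuron markers called lower in 5 of 7, and their part in the sex differences was not tested.

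ATPsyndelta, a subunit of the rotor stalk on X (FBgn0028342), kept its direction on each scale. It had 110, 106, 119, 114 and 116 CPM in w+ males and 152, 160, 147, 163 and 140 CPM in w+ females. In w- flies it had 101, 110, 111, 104 and 106 CPM in males and 151, 139, 146, 155 and 141 CPM in females. Every female library was above every male one, and the log2 differences were 0.43 ± 0.047 and 0.46 ± 0.047 (adjusted p = 6.9e-06 and 3.0e-06), or 0.16 and 0.29 with library size alone. Of the 61, the 11 on X had TMM sex medians of 0.18 and 0.20, or -0.083 and 0.029 with library size alone, and those of the arms 2L, 2R, 3L and 3R lay between 0.080 and 0.13 in w+ and between 0.066 and 0.12 in w- flies.

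COX7AL2, the paralog of COX7A with the highest level, was also higher in females. It had 9.82, 8.70, 9.37, 8.92 and 8.25 CPM in w+ males against 12.4, 10.6, 13.0, 10.8 and 14.9 in w+ females, which did not overlap, a log2 difference of 0.45 ± 0.083 (adjusted p = 6.4e-04). In w- flies the difference was 0.42 ± 0.083 (adjusted p = 8.4e-04). CG40472 was higher in females by 0.41 ± 0.054 and 0.28 ± 0.054 (adjusted p = 4.4e-05 and 8.3e-04). With library size alone the w+ differences of these genes were 0.19 and 0.14 and did not pass (adjusted p = 0.10 and 0.051).

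Many subunits have a second gene, and in *Drosophila* such copies are often expressed in the testis. In heads most of the paralogs were low, and a pair of them were not near 0. Per length, COX7AL2 had 9.55 CPM per kb in w+ males, against 228 for COX7A, and COX4L had 2.15, against 193 for COX4. The other 22 paralogs found, 12 of them by reference symbol only, stayed below 1, among them UQCR-11L at 0.972 against 48.2 for UQCR-11, COX7CL at 0.852 against 149 for COX7C, COX5BL at 0.808 against 160 for COX5B, ATPsynepsilonL at 0.361, ATPsynCF6L at 0.287 against 183 for ATPsynCF6, and SdhBL at 0.157 against 116 for SdhB. Between the genotypes no paralog was called (11 tested in males, 7 in females), with 1 in each at an unadjusted p under 0.05. Over all genes tested, 2959 of 11187 in males and 3455 of 10762 in females had such a p. COX7AL2 had 11.2, 9.26, 10.7, 9.64 and 10.99 CPM in w- males, higher than the w+ library in 5 of 5 pairs, at 0.20 ± 0.060 (adjusted p = 0.070).

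**Figure D5:**
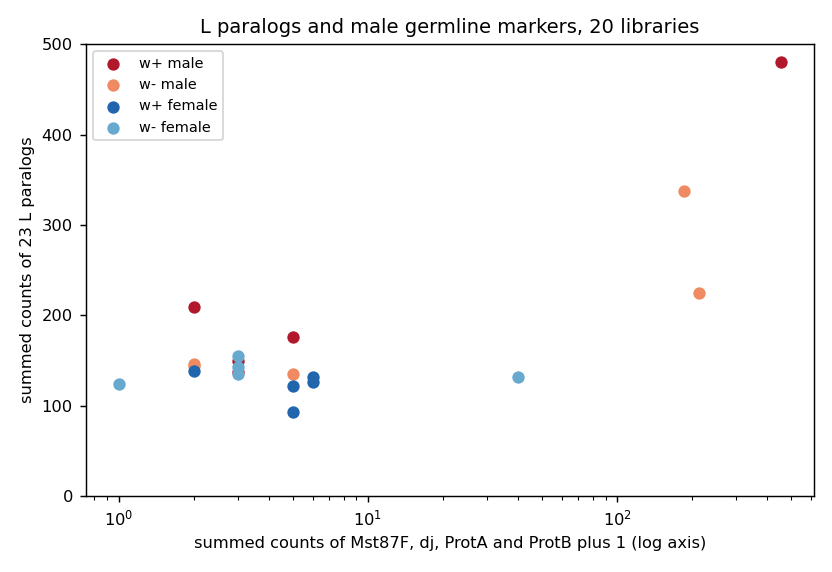
Summed counts of the 23 L paralogs other than COX7AL2 against the summed counts of 4 male germline markers plus 1 (log axis), 1 point per library. The 3 male libraries at the right, w+ male 4, w- male 1 and w- male 4, have 481, 338 and 225 paralog counts, above the 93 to 209 of the other 17.

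The counts of these paralogs were spread unevenly over libraries. The 23 paralogs other than COX7AL2 summed to 481 counts in w+ male 4, 338 in w- male 1 and 225 in w- male 4, and to 93 to 209 in the other 17 libraries. In the same 3 libraries Mst87F, a sperm tail gene, had 186, 59 and 96 counts and the spermatid gene dj 214, 86 and 109, where the other 7 male libraries had at most 4 and 2. In females only w- female 4 stood out, with 13 counts of Mst87F and 22 of dj. The part of male germline RNA in the paralog counts was not tested.

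The largest negative sex values among members rested on these libraries. SdhBL had 61 counts in w+ male 4, 14 in w- male 1 and 15 in w- male 4, and at most 3 in any other library. COX6AL2 had 29, 12 and 20 counts there and at most 2 elsewhere, and 67% of its exon bases are shared with Ir75d on the same strand, so its counts are uncertain. COX7AL had 31, 11 and 13 counts there and at most 4 elsewhere, and was the only member called lower in w+ females than in w+ males (adjusted p = 0.014). None of these 3 genes reached 10 counts elsewhere, so they passed the filter only through these libraries. Their sex values are thus no evidence of a difference between the sexes. ATPsynepsilonL had a higher call in w- females against w- males, with 15, 10, 10, 7 and 14 counts against 3, 2, 3, 4 and 1 (adjusted p = 0.0036). It had the smallest interaction p of all members (unadjusted p = 0.0021, adjusted p = 0.63), with 8, 12, 8, 8 and 4 counts in w+ males and 7, 10, 5, 0 and 4 in w+ females. Outside the w- females only w+ male 2 and w+ female 2 reached 10 counts. ATPsynepsilonL thus passed the filter only through the group where it was high, so neither p-value is evidence of a difference.

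A main-form gene can also be listed at 0 because of how reads were counted. ND-MNLL, a complex I subunit matched by its reference symbol only, had 0 counts in all 20 libraries, and 100% of its 720 exon bases are shared on the same strand with CG45089, so that reads there fall on more than 1 gene. ND-B8 had 0 to 10 counts with no shared exon base. Of the genes tested, ND-MWFE shares 15.2% of its exon bases with Nrk, COX6B 9.4% with CG18809 and UQCR-Q 2.1% with CG46525, so their levels are lower limits of the reads from those loci.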

How the data were processed

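RNA-seq of 20 samples of pooled fly heads was analysed, with groups and replicate numbers taken from the labels. The authors trimmed reads with Trim Galore 0.6.1, mapped them by STAR onto genome release r6.60 and deposited raw counts per gene on the reverse strand, a read that overlaps more than 1 gene being counted on none. They also deposited a normalized signal table per sex, counts divided by a size factor per sample, read here for symbols and to check samples. A gene was tested if 3 or more of the 20 samples, and 3 or more of the 10 in a fit of one sex, held 10 or more counts. Tests were run with edgeR 4.0.16 in R 4.3.3 (TMM, robust quasi-likelihood fit, replicate number as a block after the study's code; SE as log2 fold change over the square root of F). Sex contrasts used all 20 samples. The interaction was fitted with the 10 sex-by-number pairs as blocks. DESeq2 1.42.0 was an alternative. Ensembl's BDGP6.54 annotation gave symbols, exons and positions.

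The members and lists were chosen with earlier results of these data known. Named members were those called, the extremes of each complex in fold change and level, those with the smallest interaction p and those with the largest sex differences. The steps were tested on simulated data. No samples of a group were copies (chi-squared over its degrees of freedom 14.2 or more). Counting error only sets a floor of 3 counts, since reads carry no molecular identifiers. Other assays of the study were not analysed here.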

Additional observations from a re-analysis of the deposited data

Results flagged for a closer look

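Each group of 5 libraries was examined for a highest or lowest value that lay far from the others, for 29 named genes or sums and 116 groups in all, and 2 stood out, where chance marks about 1 group in 20. COX5A had 219 CPM in w- female 4, against 185 to 193 CPM in the other w- females. The summed counts of the 23 L paralogs other than COX7AL2 were 481 in w+ male 4, against 137 to 209 in the other w+ males. No member moved one way in every male pair and the other way in every female pair.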

How the results depend on the processing

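Of 129 recomputed counts and medians, 108 stayed near the value given, by a wide rule. A median stayed near if it kept its sign and moved by less than the SD of the pair medians. That SD was 0.071 in males and 0.080 in females, nearly the size of the genotype medians themselves. Counts that were 0 and stayed at 0 are among the 108, so this number is no support for the values. The count of members called in males, 5, was 3 with DESeq2 and 3 with library size alone, the latter all higher in w- males. It was 1 without the libraries that hold male germline counts (a choice made after seeing the data), and 0 to 16 with each number left out. Over all genes, the calls in males were 1421, and 1360, 1776 and 923 in these settings and 714 to 1526 with each number left out. In females the count of 0 became 2 with library size alone, where the median over all nuclear members reversed to 0.044, and 6 with all 20 samples in 1 fit. Over all genes, the calls in females were 993, and 1704 with DESeq2, 2068 with all 20 samples and 82 to 1121 with each number left out. Between w+ females and w+ males the count of 32, 31 of them higher in females, was 20 with only the groups compared and 18 to 36 with a number left out. With library size alone 1 member was called higher and 44 lower, and the median reversed to -0.15. Between w- females and w- males the count of 26 was 17 with library size alone, 9 without the germline libraries and 10 to 31 with a number left out, and the median reversed to -0.073 with library size alone. Of 324 recomputed values of single genes in given comparisons, 35 lost and 8 gained a call. Other values were left out of this number, and several of them changed sign in females with library size alone.

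The replicate numbers share no stated litter or day. Libraries of equal number deviated together with a mean correlation of 0.18 in males (above 0.1 in 3 of 5 pairs) and -0.079 in females (1 of 5). For libraries of unequal number the means were -0.037 and 0.037. The check thus showed no consistent pairing in both sexes. With 5 pairs per sex it cannot settle whether the male libraries were paired. Without the block, 10 members were called in males, 0 in females, 0 for the interaction, and 35 and 28 between the sexes. Over all genes these calls were 1737, 659, 3, 4059 and 4040. Genes under 10 counts, most L paralogs among them, are beyond what this depth resolves.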
